A study of Homo sapiens with 24 samples.

Results

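The 7 long noncoding RNAs described here were NEAT1, MALAT1, PVT1, LINC-PINT, PURPL, TP53TG1 and MIR34AHG, a set of p53-linked and nuclear transcripts picked by name from the 63299 rows of the count table and matched through their Ensembl identifiers. All 7 were found, and all 7 were among the 20240 genes that passed the filter on low counts. The study exposed ovarian cancer cells to 5-FdU-ECyd, a duplex prodrug that links the nucleoside analogs 5-fluoro-2'-deoxyuridine and ethynylcytidine, and sequenced total RNA after short exposure to see how the response relates to platinum resistance. The lines were A2780, which is platinum-sensitive, and its isogenic derivative A2780cis, whose resistance is kept up by passages in 1 µM cisplatin. Seeded cells of each line were left for 48 h, then received medium with 5-FdU-ECyd at 1 µM or drug-free medium, and were harvested after 6 h or 12 h, which gave 8 groups of 3 libraries and 24 libraries in all. Each group stands for a single established line, the labels name no transgene or edit, and each time point had its own untreated group.

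Long noncoding RNAs are transcribed by RNA polymerase II but code for no protein, and many stay in the nucleus. NEAT1 is the scaffold of paraspeckles, nuclear bodies that hold RNA-binding proteins, and MALAT1 is an abundant RNA of nuclear speckles, where splicing factors gather. When DNA or ribosomal RNA synthesis is disturbed, the transcription factor p53 is stabilised and switches on target genes, among them noncoding ones: MIR34AHG is the host transcript of the microRNA miR-34a, PURPL is a p53-induced RNA that acts back on p53, LINC-PINT is a p53-regulated RNA, TP53TG1 was named as a p53 target, and PVT1 lies beside MYC and has itself been linked to p53.

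The libraries held 11077368 to 21901406 counts, of which the 7 transcripts together took 0.0244% to 0.119%. Levels are given as CPM, counts scaled to a common library size after TMM normalization, which evens out library composition. Differences are log2 fold changes (log2 FC) with p-values from the quasi-likelihood test of edgeR, adjusted after Benjamini-Hochberg over all tested genes and called at an adjusted p of at most 0.05. The mesenchymal marker VIM stood at 788 to 2769 CPM and CDH2 at 13.4 to 55.6 CPM in A2780 and 1.21 to 7.42 CPM in A2780cis, whereas the epithelial ovarian carcinoma markers KRT19, CDH1, PAX8, WT1 and MUC16 were at or below 0.291 CPM in every library and EPCAM at or below 1.96 CPM. The epithelial KRT18 was at 0.718 to 3.27 CPM in A2780 and 20.6 to 28.4 CPM in A2780cis, KRT8 at 0.574 to 1.75 and 3.82 to 6.80 CPM, and leukocyte and endothelial markers were at or below 0.284 CPM. The fibroblast markers COL1A1 and DCN reached 16.0 and 12.3 CPM in A2780 and 2.99 and 1.47 CPM in A2780cis.

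At 12 h, 6 of the 7 transcripts were up-regulated in A2780 and 6 in A2780cis, and none was down-regulated. The transcript that missed the threshold was LINC-PINT in A2780 and MIR34AHG in A2780cis. Against these counts, 28.6% of all tested genes were called higher in A2780 at 12 h and 31% in A2780cis, 26.1% and 28.9% were called lower, and 54.8% and 59.9% were called in either direction. The median log2 FC of the 7 was 1.41 in A2780 and 0.82 in A2780cis, beside 0.02 and 0.04 over all tested genes. Among the 3440 tested genes of the long noncoding class, 35.0% were higher in A2780 and 37.8% in A2780cis at 12 h. At 6 h, 4 transcripts were called in each line: in A2780 TP53TG1 and MIR34AHG were higher and PVT1 and LINC-PINT lower, where 16% of all genes were called higher, 13.4% lower and 29.4% in either direction, and in A2780cis NEAT1, MALAT1, PURPL and TP53TG1 were higher, where 14.4% were called higher, 16.3% lower and 30.7% in either direction. In bulk RNA such as this, a change in the number of cells of a kind and a change in RNA per cell cannot be told apart. CPM are also relative to the other transcripts of a library, so a change in total RNA per cell would not show. The paper describes ECyd, a part of the prodrug, as an inhibitor of RNA polymerase. An effect of that on the levels given here was not tested.

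**Figure D1:**
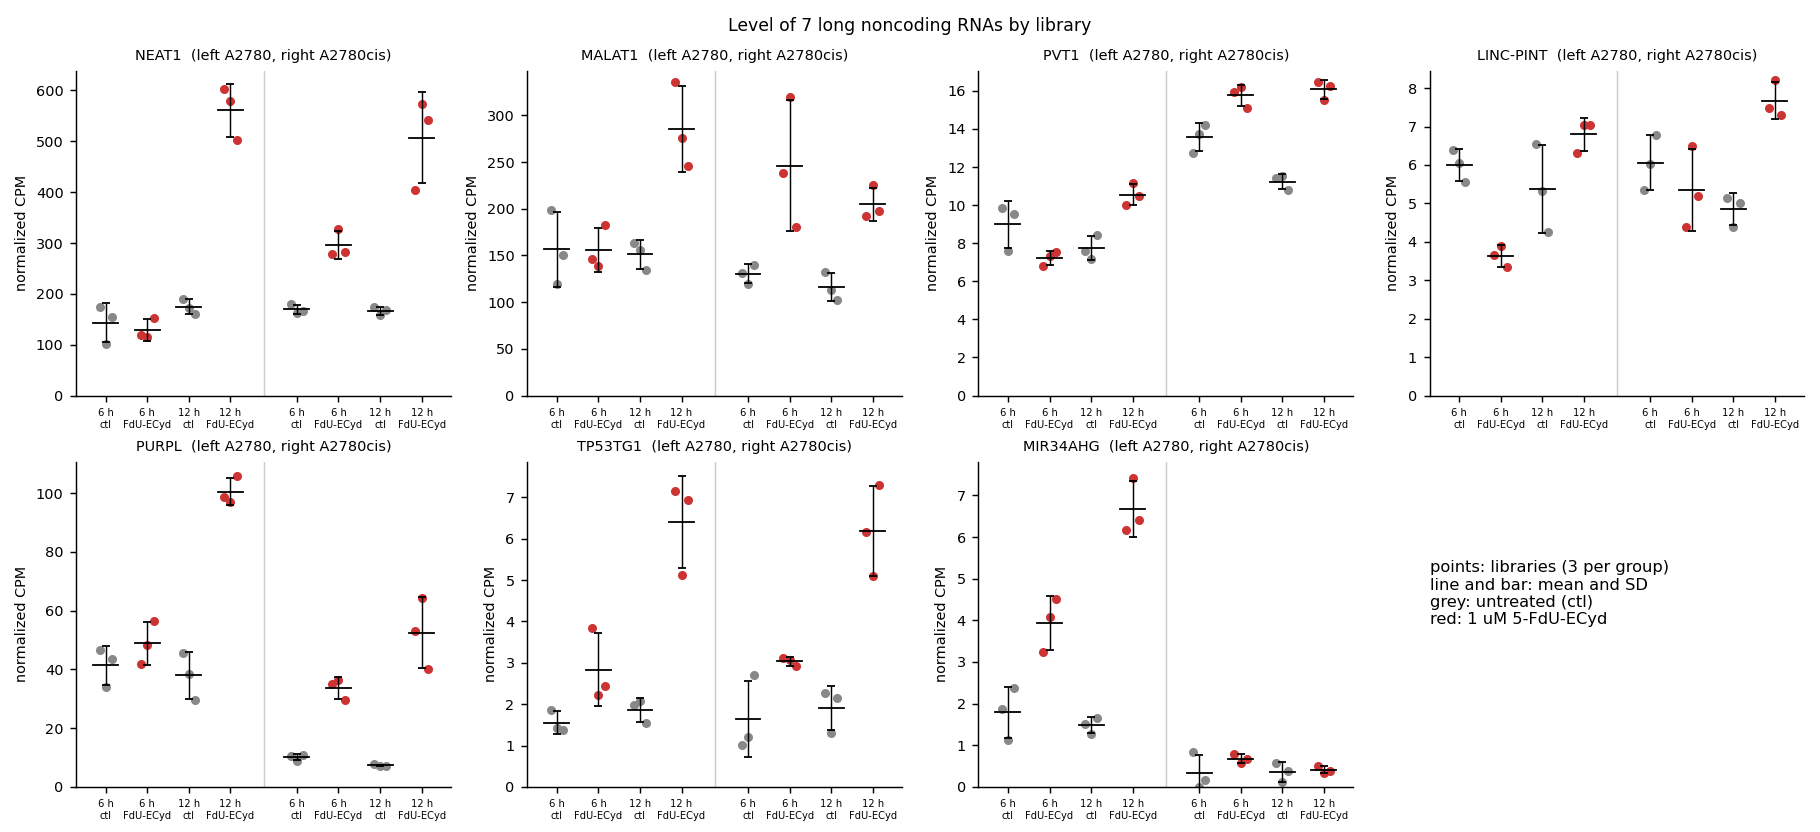
Level of the 7 long noncoding RNAs in each of the 24 libraries, in CPM after TMM normalization on linear axes that start at 0; points are libraries, lines and bars the mean and SD of 3, grey untreated, red 5-FdU-ECyd treated, with A2780 left and A2780cis right in each panel. At 12 h NEAT1 rose from 175 to 561 CPM in A2780, and A2780cis went from 167 to 507 CPM, while MIR34AHG stayed below 1 CPM in all A2780cis libraries.

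NEAT1, the paraspeckle scaffold, rose about 3-fold in both lines at 12 h. At 6 h it rose 1.74-fold in A2780cis and did not pass the threshold in A2780. The gene lies on chromosome 11 from 65422774 to 65445540 on the plus strand (GRCh38, GENCODE 44), as an unspliced transcript of 22767 bases. At 12 h the untreated A2780 libraries held 190.5, 173 and 161 CPM and the treated ones 602, 579 and 503 CPM. The untreated A2780cis libraries held 174, 158 and 168 CPM and the treated ones 405, 573 and 543 CPM. In each line every treated library lay above every untreated one. The log2 FC was 1.68 ± 0.15 (SE; 3.21-fold; adjusted p = 9.61e-10) in A2780 and 1.61 ± 0.15 (3.04-fold; adjusted p = 1.54e-09) in A2780cis, and the difference between the lines was -0.08, with a 95% interval from -0.52 to 0.37.

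At 6 h the picture differed between the lines. Untreated A2780 libraries held 175, 101 and 155 CPM of NEAT1 and treated ones 119, 116 and 153 CPM, so the groups overlapped. In A2780cis the untreated libraries held 179.8, 163 and 166 CPM and the treated ones 278, 327 and 281 CPM, with no overlap. The log2 FC was -0.15 ± 0.15 in A2780 (95% interval -0.47 to 0.17; adjusted p = 0.477) and 0.80 ± 0.15 in A2780cis (adjusted p = 2.36e-04). The difference of 0.95 ± 0.21 between the lines passed the threshold (adjusted p = 0.0110), but without A2780 control replicate 1 it was 0.78 with an adjusted p of 0.0520.

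NEAT1 counts also lay unevenly along the transcript. The annotation lists 3 short RNA segments inside NEAT1 as rows of their own, on its strand and beginning 499, 864 and 1186 bases after its start, and since a read could be counted for every feature that it overlapped, these rows share reads with NEAT1. Their sequences are shown because they mark where along the transcript those reads fell (GRCh38, plus strand, 5′ to 3′):
ENSG00000278144, chr11:65423273-65423392: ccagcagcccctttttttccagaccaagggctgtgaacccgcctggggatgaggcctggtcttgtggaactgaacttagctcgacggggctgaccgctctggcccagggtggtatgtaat
ENSG00000278050, chr11:65423638-65423742: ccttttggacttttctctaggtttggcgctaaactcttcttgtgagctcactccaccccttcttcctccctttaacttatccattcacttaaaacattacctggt
ENSG00000277599, chr11:65423960-65424118: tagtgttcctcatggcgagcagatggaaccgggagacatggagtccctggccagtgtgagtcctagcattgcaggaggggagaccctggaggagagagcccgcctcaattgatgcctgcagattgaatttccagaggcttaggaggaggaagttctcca
Together these segments span 384 bases, or 1.69% of NEAT1, and carried 8.33% to 12.8% of its counts over the 24 libraries. Per base this was 4.94 to 7.57 times the value of the whole gene. A read that overlapped a segment only in part could be counted for it. The ratio can thus overstate the density in these short rows, by an amount that was not measured. At 12 h the log2 FC of the segments was 1.36, 1.64 and 1.80 in A2780 and 1.75, 1.76 and 1.83 in A2780cis, in the order of their position from the start, beside 1.68 and 1.61 for NEAT1 as a whole. The segments lie within the stretch that the short and the long isoform of NEAT1 have in common, and the level of the long isoform alone was not analysed here.

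MALAT1, the speckle RNA that lies on the same arm of chromosome 11 (65497640 to 65508073, plus strand), rose in the same 3 treatment comparisons as NEAT1. At 12 h untreated A2780 libraries held 164, 156 and 134 CPM and treated ones 336, 275 and 245.5 CPM, and untreated A2780cis libraries held 133, 113 and 103 CPM and treated ones 192.5, 225 and 197 CPM. The groups did not overlap in either line. The log2 FC was 0.92 ± 0.17 in A2780 (1.89-fold; adjusted p = 7.03e-05) and 0.82 ± 0.17 in A2780cis (adjusted p = 2.29e-04). At 6 h MALAT1 stood at 156 ± 40.1 CPM (SD, n = 3) without and 156 ± 23.4 CPM with 5-FdU-ECyd in A2780, and the log2 FC was -0.01 (95% interval -0.38 to 0.36). In A2780cis it rose from 131, 119.5 and 139.7 CPM to 238, 319.9 and 180.4 CPM, a log2 FC of 0.92 ± 0.17 (adjusted p = 2.60e-04). The lines differed at 6 h by 0.92 ± 0.25 (adjusted p = 0.0344), a call that was lost when the 4 groups were fitted alone (adjusted p = 0.0584) and when any of 7 libraries was left out: A2780 control replicate 1, A2780 treated replicates 1 and 2, A2780cis control replicates 1 and 2, and A2780cis treated replicates 1 and 2 (adjusted p 0.0550 to 0.151).

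The balance of these nuclear RNAs shifted at 12 h. The ratio of NEAT1 to MALAT1 counts, which does not depend on library scaling, rose in A2780 from 1.16 ± 0.0452 (SD, n = 3) to 1.98 ± 0.166, and A2780cis went from 1.45 ± 0.172 to 2.47 ± 0.331. In both lines the lowest treated ratio lay above the highest untreated one. At 6 h the ratio was 0.917 ± 0.101 without and 0.829 ± 0.0158 with 5-FdU-ECyd in A2780, and 1.31 ± 0.103 and 1.25 ± 0.278 in A2780cis. Per kb of exon length, with NEAT1 taken at its full 22767 bases, MALAT1 stood above NEAT1 in untreated cells at 12 h. The levels were 14.5 against 7.68 CPM per kb in A2780 and 11.1 against 7.32 in A2780cis. Reads of the short NEAT1 isoform come from fewer bases than this length, so the order of MALAT1 and NEAT1 depends on the length used. After 12 h of treatment the levels of MALAT1 and NEAT1 were 27.4 ± 4.42 and 24.7 ± 2.29 CPM per kb in A2780 and 19.6 ± 1.68 and 22.3 ± 3.93 in A2780cis. These ranges of mean and SD overlapped in each line, and the order within single libraries was not tested.

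**Figure D2:**
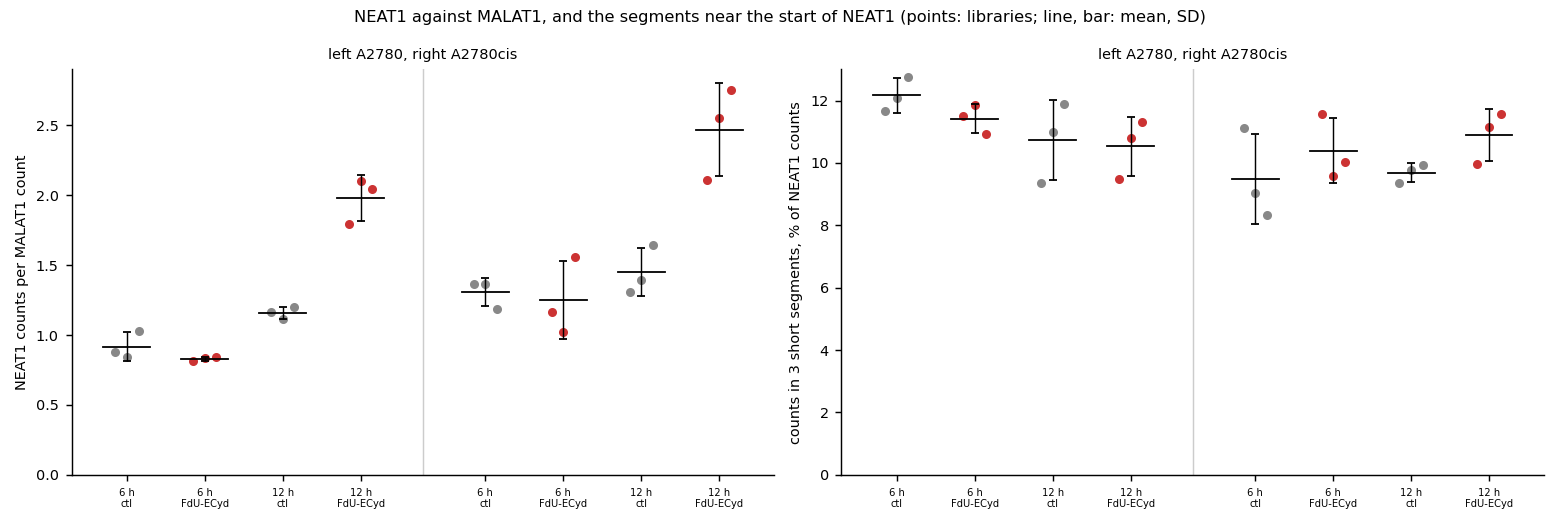
Left, counts of NEAT1 per count of MALAT1 in each library; right, the share of NEAT1 counts, in percent, that fell in the 3 short segments near its start; points are libraries, lines and bars the mean and SD of 3, grey untreated, red 5-FdU-ECyd treated. The ratio rose to 1.98 in A2780 and 2.47 in A2780cis at 12 h, while the segment share stayed between 8.33% and 12.8%.

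PURPL, the p53-induced RNA that acts back on p53, rose in both lines at 12 h, and its response differed between the lines at both times. It extends on chromosome 5 from 27217714 to 27497871 on the plus strand in GENCODE 44, and RefSeq places a start inside that extent, at 27472292. The window around that start (chr5:27472042-27472341, GRCh38.p14, plus strand, from RefSeq) is shown because it was the only one of the 9 windows matched for 5 of the 7 transcripts that held a p53 decamer, the 10-base unit of the p53 response element. Capitals mark 2 such decamers side by side:
PURPL: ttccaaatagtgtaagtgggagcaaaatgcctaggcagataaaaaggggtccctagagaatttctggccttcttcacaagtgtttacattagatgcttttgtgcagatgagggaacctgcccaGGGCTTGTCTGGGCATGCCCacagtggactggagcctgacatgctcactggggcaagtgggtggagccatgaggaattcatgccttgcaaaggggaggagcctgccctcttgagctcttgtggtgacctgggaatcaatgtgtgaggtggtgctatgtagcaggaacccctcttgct
The decamer pattern reads the same way on both strands, so each start position was counted once, and overlapping matches were allowed. Of 35116 RefSeq promoter windows of this length, 6.63% held a decamer, and 0.0285% held a pair with a spacer of at most 13 bases, as here. Such a match is a description of letters and not a binding site. NEAT1 and PVT1 had no entry in the promoter table.

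Untreated A2780 libraries held 45.7, 38.5 and 29.7 CPM of PURPL at 12 h and treated ones 98.8, 96.9 and 105.7 CPM. Untreated A2780cis libraries held 7.66, 7.13 and 7.18 CPM and treated ones 53.2, 64.2 and 40.3 CPM. Treated and untreated libraries were well apart in both lines, and the treated A2780cis libraries overlapped in level with the untreated A2780 ones. For PURPL the log2 FC at 12 h was 1.41 ± 0.15 in A2780 (2.65-fold; adjusted p = 2.50e-08) and 2.84 ± 0.17 in A2780cis (7.17-fold; adjusted p = 5.23e-13), and the difference of 1.43 ± 0.23 passed the threshold (adjusted p = 7.18e-05).

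At 6 h PURPL had already risen in A2780cis, from 10.5, 8.92 and 10.96 CPM to 35.0, 36.4 and 29.5 CPM, whereas in A2780 it stood at 46.6, 34.1 and 43.5 CPM without and 41.8, 48.4 and 56.4 CPM with 5-FdU-ECyd. The A2780 groups overlapped and the A2780cis groups did not. The log2 FC was 1.72 ± 0.18 in A2780cis (adjusted p = 5.17e-08) and 0.24 ± 0.16 in A2780 (95% interval -0.09 to 0.57; adjusted p = 0.261), a difference of 1.48 ± 0.23 (adjusted p = 6.98e-04). Of the 7 transcripts PURPL in A2780cis ranked highest by log2 FC at 12 h, at place 458 of the 20240 tested genes.

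TP53TG1, named as a p53 target, rose in both lines at both times. It lies on chromosome 7 from 87322943 to 87345560 on the minus strand, 103 bp from CROT, which encodes carnitine O-octanoyltransferase and is read the other way. The shared promoter window (RefSeq, GRCh38.p14, chr7:87345443-87345742, minus strand) is shown because both neighbours are described below, with the 173 bases from the CROT start to the RefSeq start of TP53TG1 in capitals:
TP53TG1: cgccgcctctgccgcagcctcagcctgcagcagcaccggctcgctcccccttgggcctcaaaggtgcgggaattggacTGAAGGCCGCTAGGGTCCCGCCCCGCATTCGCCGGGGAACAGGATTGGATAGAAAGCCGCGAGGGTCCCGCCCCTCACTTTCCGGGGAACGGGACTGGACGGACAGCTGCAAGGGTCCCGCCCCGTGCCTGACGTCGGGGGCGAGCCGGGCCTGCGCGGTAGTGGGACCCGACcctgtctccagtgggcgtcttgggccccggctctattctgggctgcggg
At 12 h untreated A2780 libraries held 1.98, 2.08 and 1.54 CPM of TP53TG1 and treated ones 7.15, 5.13 and 6.95 CPM, and untreated A2780cis libraries held 2.26, 1.29 and 2.16 CPM and treated ones 6.16, 5.11 and 7.29 CPM. The groups were apart in each line and alike between the lines. The log2 FC was 1.78 ± 0.25 in A2780 (adjusted p = 1.27e-06) and 1.68 ± 0.25 in A2780cis (adjusted p = 1.87e-06), and the interval of the difference ran from -0.84 to 0.66. At 6 h the log2 FC was 0.85 in each line (adjusted p = 0.0383 in A2780 and 0.0312 in A2780cis), from 1.55 to 2.83 CPM and from 1.64 to 3.03 CPM. These 6 h calls rested on few counts. The A2780 call was lost without control replicate 1, 2 or 3 or treated replicate 1 (adjusted p 0.0515 to 0.245), and the A2780cis call without control replicate 1 or 2 or any of the treated libraries (adjusted p 0.0577 to 0.170), and without A2780cis control replicate 3 that log2 FC was 1.44.

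MIR34AHG, the host of miR-34a, rose in A2780 at both times and stayed near the limit of detection in A2780cis. The gene lies on chromosome 1 from 9148011 to 9198906 on the minus strand. The mature microRNA it contains is shown because it is the known product of this transcript (RefSeq, chr1:9151735-9151756, minus strand, 22 bases, seed of bases 2 to 8 in capitals), although the microRNA itself was not analysed here:
hsa-miR-34a-5p: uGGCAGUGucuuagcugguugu
At 6 h untreated A2780 libraries held 1.87, 1.14 and 2.36 CPM of MIR34AHG and treated ones 3.24, 4.07 and 4.52 CPM. At 12 h untreated A2780 libraries held 1.52, 1.27 and 1.64 CPM and treated ones 6.17, 7.43 and 6.41 CPM. At both times all treated A2780 libraries were higher than all untreated ones. In A2780 the log2 FC was 1.13 ± 0.31 at 6 h (adjusted p = 0.00760) and 2.17 ± 0.28 at 12 h (4.49-fold; adjusted p = 3.14e-07).

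In A2780cis the raw counts of MIR34AHG were 9, 0 and 2 in untreated and 10, 8 and 14 in treated libraries at 6 h, and 12, 2 and 7 in untreated and 8, 6 and 6 in treated libraries at 12 h. The highest level in any A2780cis library, 0.832 CPM, lay below the lowest in A2780. The 12 h log2 FC was 0.15 ± 0.54 (95% interval -0.99 to 1.29; adjusted p = 0.836), and that at 6 h was 1.00 ± 0.57 (adjusted p = 0.197), or 2.80 with an adjusted p of 0.00762 without A2780cis control replicate 1. The lines differed at 12 h by -2.02 ± 0.62 (adjusted p = 0.0201), which became -1.47 with an adjusted p of 0.178 without A2780cis control replicate 1. A transcript that overlaps MIR34AHG on the other strand, LNCTAM34A, rose in A2780 at 12 h from 0.192 ± 0.0853 to 1.45 ± 0.175 CPM (log2 FC = 2.84 ± 0.39; adjusted p = 1.68e-06). The strand setting of the counting is not given in the sources used here, so reads of these overlapping transcripts cannot be told apart.

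LINC-PINT, the p53-regulated RNA on chromosome 7 (130791264 to 131110176, minus strand), fell at 6 h in A2780 and rose at 12 h in A2780cis. At 6 h it fell in A2780 from 6.39, 6.06 and 5.55 CPM to 3.67, 3.89 and 3.33 CPM, with no overlap (log2 FC = -0.73 ± 0.17; adjusted p = 0.00252). In A2780cis the 6 h groups overlapped, at 6.055 ± 0.714 and 5.36 ± 1.07 CPM (log2 FC = -0.18 ± 0.16; adjusted p = 0.436). At 12 h it rose in A2780cis from 5.15, 4.38 and 5.02 CPM to 7.49, 8.21 and 7.29 CPM (log2 FC = 0.66 ± 0.15; adjusted p = 5.56e-04). In A2780 the 12 h groups overlapped, at 5.38 ± 1.14 and 6.80 ± 0.424 CPM (log2 FC = 0.35 ± 0.15; adjusted p = 0.0528). This last value passed the threshold with scaling by library size alone (0.58; adjusted p = 0.00307) and without A2780 control replicate 1 (0.49; adjusted p = 0.0162).

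PVT1, on chromosome 8 from 127794526 to 128187101 on the plus strand, showed the smallest up-regulation of those called at 12 h. Untreated A2780 libraries held 7.59, 7.18 and 8.43 CPM at 12 h and treated ones 10.0, 11.1 and 10.5 CPM, and untreated A2780cis libraries held 11.4, 11.5 and 10.8 CPM and treated ones 16.4, 15.5 and 16.3 CPM. No library of a treated group lay within its untreated group. Its log2 FC was 0.45 ± 0.11 in A2780 (adjusted p = 0.00103) and 0.52 ± 0.10 in A2780cis (adjusted p = 1.17e-04). At 6 h it was -0.32 ± 0.12 in A2780 (adjusted p = 0.0443), a call lost under 9 of 13 alternatives, among them a fit without control replicate 1 or 3 or any of the treated libraries (adjusted p up to 0.282 over all of them), and 0.21 ± 0.11 in A2780cis (adjusted p = 0.133).

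**Figure D3:**
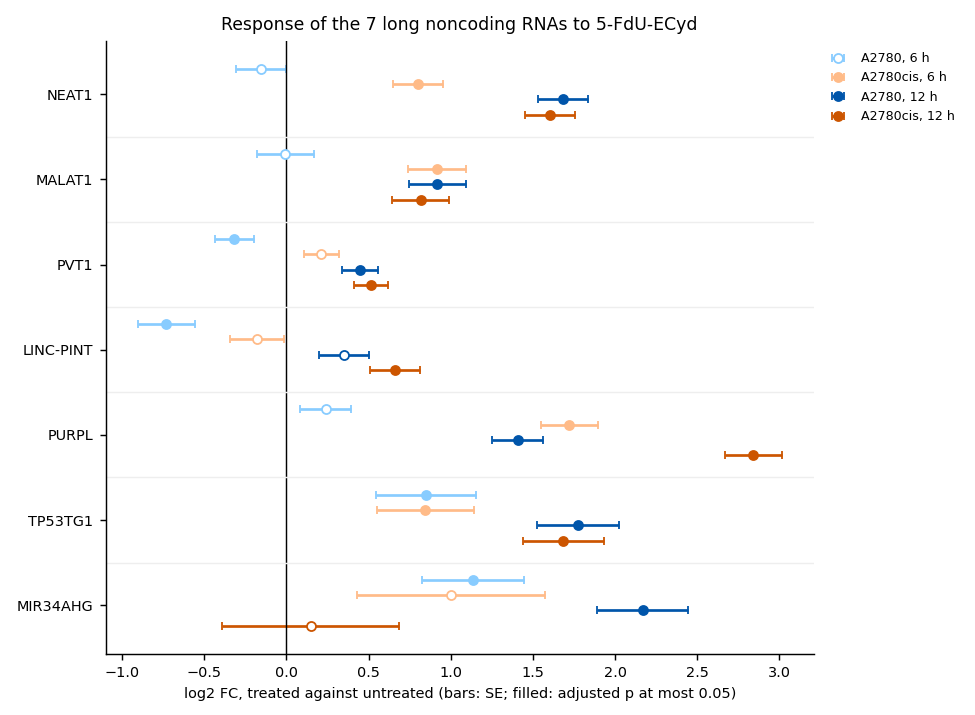
Log2 FC of 5-FdU-ECyd treated against untreated cells for the 7 long noncoding RNAs, with bars of 1 SE; light colours are 6 h and dark colours 12 h, blue A2780 and orange A2780cis, and filled points passed an adjusted p of 0.05. PURPL in A2780cis at 12 h lay farthest to the right, at 2.84, and LINC-PINT in A2780 at 6 h farthest to the left, at -0.73.

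The design also allows the responses to be compared between lines and between times. At 6 h the response was larger in A2780cis for 3 of the 7 transcripts, NEAT1, MALAT1 and PURPL, where 3.07% of all tested genes differed between the lines. At 12 h it was larger in A2780cis for PURPL and smaller for MIR34AHG, where 23.7% of all genes differed. From 6 h to 12 h the log2 FC grew in A2780 for 5 transcripts, by 1.84 for NEAT1 (adjusted p = 1.96e-06), 1.17 for PURPL (4.50e-04), 1.08 for LINC-PINT (0.00146), 0.93 for MALAT1 (0.00741) and 0.77 for PVT1 (0.00124), where 23.7% of all genes changed their response. In A2780cis it grew for 3 transcripts, by 1.12 for PURPL (adjusted p = 0.00176), 0.84 for LINC-PINT (0.00768) and 0.81 for NEAT1 (0.00707), where 24% of all genes did. For MALAT1 in A2780cis the log2 FC at 12 h less that at 6 h was -0.10, with a 95% interval from -0.62 to 0.42 (adjusted p = 0.821).

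In untreated cells the lines differed in 3 of the 7 transcripts at each time. PURPL was lower in A2780cis, at 10.1 ± 1.07 against 41.4 ± 6.52 CPM at 6 h (log2 FC = -2.03; adjusted p = 2.36e-10) and 7.32 ± 0.291 against 38.0 ± 8.03 CPM at 12 h (-2.37; adjusted p = 5.50e-12). MIR34AHG was also lower in A2780cis, with a log2 FC of -2.40 at 6 h (adjusted p = 2.22e-04) and -1.99 at 12 h (2.23e-04). The 6 h value rests on the A2780cis control counts of 9, 0 and 2 and was -4.20 without A2780cis control replicate 1. PVT1 was higher in A2780cis, by 0.59 (8.48e-05) and 0.54 (1.39e-04). Of all tested genes, 47.9% differed between the untreated lines at 6 h and 52.9% at 12 h. The untreated libraries here are the same ones that the treatment comparisons use, so a low untreated level of PURPL in A2780cis enters its log2 FC under treatment. Between 6 h and 12 h without drug none of the 7 was called in A2780 by edgeR, with 0 at an unadjusted p under 0.05 and 0 by DESeq2, where 26.9% of all genes were called. In A2780cis PVT1 (-0.27; adjusted p = 0.0432) and PURPL (-0.47; adjusted p = 0.0476) were lower at 12 h, where 39.9% of all genes were called, and both calls were lost when A2780cis control replicate 3 at 6 h or replicate 1, 2 or 3 at 12 h was left out.

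The nearest protein-coding genes of these transcripts moved in part with them and in part against them. MYC, the proto-oncogene 51.574 kb from PVT1, fell in all 4 treatment comparisons while PVT1 rose at 12 h: in A2780 MYC went from 94.1 ± 8.15 to 34.8 ± 1.49 CPM at 12 h (log2 FC = -1.44), and in A2780cis from 98.7 to 67.3 CPM (-0.55). CROT, divergent from TP53TG1 across the window shown above, rose with it in A2780 (0.93 at 6 h; 1.59 at 12 h, adjusted p = 8.24e-10) and by 0.43 in A2780cis at 12 h (adjusted p = 0.00743). The response of CROT differed between the lines at 12 h by -1.16, whereas that of TP53TG1 differed by -0.09 with an interval that includes 0. FRMD8, 9.248 kb from NEAT1, was higher in A2780 already at 6 h (1.39), when NEAT1 was not, and at 12 h in both lines (1.65 and 0.87). MKLN1, whose first bases overlap those of LINC-PINT on the other strand, fell in all 4 comparisons (-0.59 and -0.60 at 6 h, -0.50 and -0.90 at 12 h), and KLF14, a zinc finger factor 57.056 kb from LINC-PINT, was higher at 12 h (0.82 and 1.87; adjusted p = 0.0146 and 1.06e-04). H6PD, 35.867 kb from MIR34AHG, fell in both lines at 6 h (-1.09 and -0.57) and in A2780 at 12 h (-0.69) but was higher in A2780cis at 12 h (0.32; adjusted p = 0.0411), and GPR157, 18.908 kb away on the other side, was lower in A2780cis (-0.49 at each time). The cadherin gene CDH9, 96.563 kb from PURPL, was lower in A2780 (-1.43 and -1.80), and CDH6, the nearest on the other side at 3695.814 kb, was lower there at 12 h (-1.60). Both rested on few counts: untreated A2780 libraries at 12 h held 31 to 40 of CDH9 and 9 to 25 of CDH6. No A2780cis library held more than 1 count of either gene. TMEM243, 102.355 kb from TP53TG1, was lower in A2780cis at 6 h (-0.53), and GSDMC, 1561.094 kb from PVT1, was not tested.

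**Figure D4:**
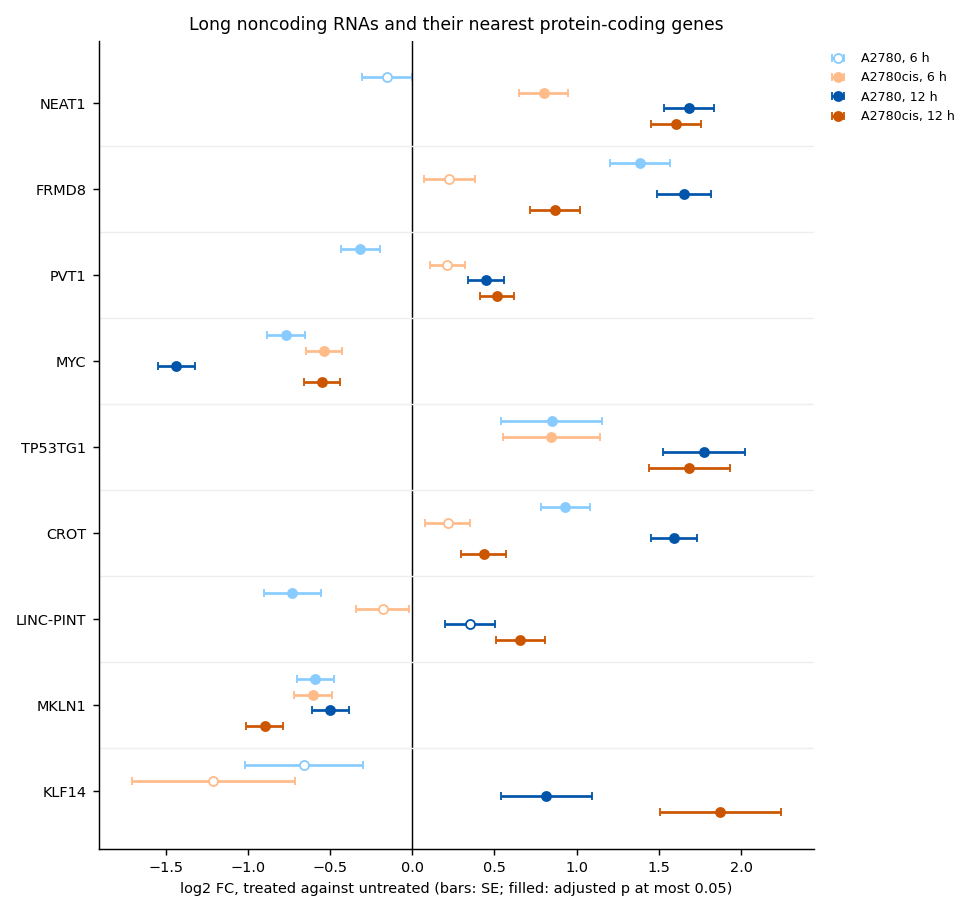
Log2 FC of 5-FdU-ECyd treated against untreated cells for NEAT1, PVT1, TP53TG1 and LINC-PINT and for nearby protein-coding genes, with bars of 1 SE; light colours are 6 h and dark colours 12 h, blue A2780 and orange A2780cis, and filled points passed an adjusted p of 0.05. MYC lay left of 0 in all 4 comparisons and reached -1.44 in A2780 at 12 h, while PVT1 lay at 0.45 and 0.52 at 12 h.

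Other genes of the same pathways gave a frame for these values. Of 31 tested protein-coding p53 targets, 31 were higher in A2780 and 28 in A2780cis at 12 h, with a median log2 FC of 1.84 and 1.48, where 28.6% and 31% of all genes were higher. At 6 h 30 and 25 were higher, where 16% and 14.4% of all genes were. For CDKN1A, the gene of the cell cycle inhibitor p21, the 12 h log2 FC was 2.89 (A2780) and 4.12 (A2780cis), for BTG2, an antiproliferative gene, 3.86 and 3.23, and for TP53I3, a p53-inducible oxidoreductase, 3.49 and 2.74. TP53INP1, a stress gene of the same group, was higher only in A2780 by its call (3.54, against -0.18 with an adjusted p of 0.694 in A2780cis). This difference of -3.72 passed the test. In A2780cis at 12 h, however, TP53INP1 had only 6 to 19 counts per untreated library and 5 to 11 per treated one. Its levels there were 0.561 and 0.505 CPM, against 11.8 and 137 CPM in A2780. Of 15 other p53-linked RNAs listed, 12 were found and 7 were tested. This list includes WRAP53, which is a protein-coding gene, and shares TUG1 and LINC-ROR with the nuclear noncoding RNAs below. Of the 7 tested, 5 were higher and 1 lower in A2780 at 12 h, where 28.6% of all genes were called higher. Their median log2 FC was 0.96. In A2780cis 3 were higher and 1 lower, where 31% of all genes were called higher, and the median was 0. A median of exactly 0 can stand for a gene without counts in either A2780cis group. It is therefore not read here as a lack of response. NORAD, an RNA that binds Pumilio proteins, had a log2 FC of 1.03 (adjusted p = 2.26e-08) and 0.70 (6.81e-06), and PINCR, a p53-induced RNA, 1.13 in A2780 (3.31e-05). In A2780cis PINCR was also called higher (adjusted p = 1.07e-04), from 0 to 2 counts per untreated library to 6.5 to 12 per treated one. H19, an imprinted RNA, rose by 1.17 in A2780 and stood at -0.04 in A2780cis (adjusted p = 0.861), and TUG1 rose by 0.52 and 0.65.

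Genes whose products meet NEAT1 and MALAT1 in nuclear bodies went mostly the other way. Of 25 paraspeckle protein genes, 4 were higher and 18 lower in A2780 at 12 h, and 1 higher and 20 lower in A2780cis, with a median log2 FC of -0.43 and -0.47, where 26.1% and 28.9% of all genes were lower. PSPC1, which encodes a core paraspeckle protein, fell by 0.93 and 0.69 on the log2 scale, HNRNPR by 1.23 and 1.22, and SMARCC1, a chromatin remodelling subunit, by 1.16 and 1.33. Of 25 nuclear speckle genes, 3 were higher and 15 lower in A2780, and 3 higher and 18 lower in A2780cis, with a median of -0.43 and -0.81. SRSF3, a splicing factor, fell by 1.41 and 1.91, THRAP3 by 1.50 and 1.35, and SRRM1 by 0.71 and 1.62. Of 11 tested other nuclear noncoding RNAs, 3 were higher in A2780 and 8 in A2780cis at 12 h and none was lower, beside 28.6% and 31% of all genes called higher, and the median log2 FC was -0.0078 and 1.11. KCNQ1OT1, an antisense RNA of an imprinted region, had a log2 FC of 1.38 and 1.11. The short polymerase III transcripts RN7SK and RPPH1 were called higher only in A2780cis (4.90 and 5.57), but libraries of the same group differed widely in them, as in A2780cis treated for 6 h, where RN7SK ranged from 1.84 to 68.9 CPM.

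**Figure D5:**
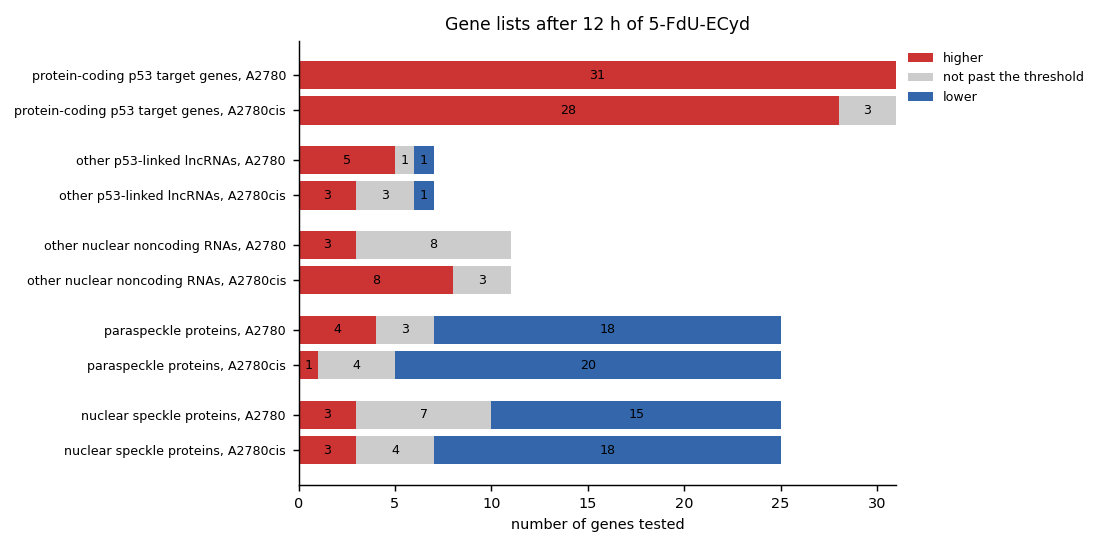
Number of tested genes called higher (red), not past the threshold (grey) or lower (blue) after 12 h of 5-FdU-ECyd in each line, for 5 gene lists. All 31 p53 targets were higher in A2780, while 18 of 25 paraspeckle genes were lower there and 20 of 25 in A2780cis.

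Per kb of exon length, MALAT1 and NEAT1 stood above the other transcripts in all 8 groups, with group means from 11.1 to 27.4 and from 5.68 to 24.7 CPM per kb. The NEAT1 values again use its full 22767 bases. All exon lengths here come from GENCODE, and the exons that the authors counted over may differ. The CPM per kb and their order thus depend on the lengths used. PURPL came next in the A2780 groups and in treated A2780cis, at 1.61 in untreated and 4.25 CPM per kb in treated A2780 and 2.22 in treated A2780cis at 12 h. In untreated A2780cis PVT1 stood above PURPL, at 0.534 against 0.429 CPM per kb at 6 h and 0.442 against 0.310 at 12 h. PVT1 was also above PURPL there before division by length, at 13.6 against 10.1 CPM at 6 h and 11.2 against 7.32 CPM at 12 h. TP53TG1 was at 0.309 CPM per kb in untreated A2780cis at 12 h. Its closeness to PURPL rests on the lengths used, 6170 bases for TP53TG1 and 23638 for PURPL. PVT1, LINC-PINT, TP53TG1 and MIR34AHG stayed at or below 1.04 CPM per kb in every group, and MIR34AHG in A2780cis was lowest, between 0.0381 and 0.0782.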

How the data were processed

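Total RNA of 24 libraries was sequenced with the TruSeq Stranded Total RNA kit. Per the labels and the study's methods, the authors used bcl2fastq, Trimmomatic, STAR 2.5.2b on GRCh38.p7 and featureCounts over exons, with reads that overlap several features counted for each and multimapping reads counted as fractions; the strand setting is not given in the sources used here. The authors' deposited values are therefore estimated counts per gene, which the authors made by that counting; of these, 9.50% to 12.8% per library were not whole, and they were rounded. The study calls the 3 libraries of a group biological triplicates without saying how the cultures were separated, and p-values measure the spread between these libraries. After counting, the study removed lincRNA and rRNA genes and genes without any count, so its own tests may not cover these transcripts. No source names molecular identifiers.

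Row identifiers were looked up in GENCODE release 44, which lists 56948 of 63299 and whose extents may differ from those the authors used. Rows were kept by filterByExpr (minimum count 10, minimum total 15). Group means of all 8 groups were fitted with edgeR 4.0.16 (limma 3.58.1, R 4.3.3), with TMM factors, 16 residual degrees of freedom and glmQLFTest; SE is the log2 FC over the root of F. Figures were drawn with matplotlib 3.10.9 in Python 3.11.15. Alternatives were DESeq2-style size factors, library size alone, no filter, counts not rounded, the compared groups alone, the replicate number as a block, DESeq2 1.42.0 and leaving out each library. The code was tested on simulated data.

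Named genes were the 7 members, the nearest protein-coding gene on each side, the 3 genes most like each member by Pearson r over the 8 group means (mean log2 CPM of at least 2), and up to 4 genes per list with the smallest adjusted p at 12 h. The members and lists were chosen with earlier results of these data known. Of the other p53-linked RNAs listed, TP53COR1, DINOL and LINCPRESS1 were not analysed here, and a neighbouring gene is not reported here.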

Additional observations from a re-analysis of the deposited data

Results flagged for a closer look

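Several responses of the long noncoding RNAs differed between the lines or the times by a test of the difference itself. Between the lines, A2780cis minus A2780, the difference in log2 FC at 6 h was 0.95 for NEAT1, 0.92 for MALAT1 and 1.48 for PURPL, and at 12 h it was 1.43 for PURPL and -2.02 for MIR34AHG. From 6 h to 12 h the log2 FC grew in A2780 by 1.84 for NEAT1, 0.93 for MALAT1, 0.77 for PVT1, 1.08 for LINC-PINT and 1.17 for PURPL, and in A2780cis by 0.81 for NEAT1, 0.84 for LINC-PINT and 1.12 for PURPL.

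Among the neighbouring protein-coding genes, the lines differed at 6 h for CROT beside TP53TG1 (-0.72) and FRMD8 beside NEAT1 (-1.16). At 12 h they differed for CROT (-1.16), FRMD8 (-0.79), MYC beside PVT1 (0.88) and H6PD beside MIR34AHG (1.01). FRMD8 and CROT thus responded more in A2780 at both times, whereas NEAT1 responded more in A2780cis at 6 h and TP53TG1 did not pass this test at either time.

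Among the named genes of the lists, the lines differed at 6 h for TUG1 (0.52), TP53I3 (-0.56) and TP53INP1 (-1.86). TP53INP1 had 9 to 11 counts per untreated and 16 to 19 per treated A2780cis library at 6 h. At 12 h the noncoding RNAs differed by -1.21 for H19, 1.69 for PINCR, which had 0 to 2 counts in untreated A2780cis, 6.20 for RN7SK and 6.96 for RPPH1. The values of RN7SK and RPPH1 rest in part on A2780 libraries that vary widely within a group. At 12 h the p53 targets CDKN1A, TP53I3, TP53INP1 and BTG2 differed by 1.24, -0.75, -3.72 and -0.63. The value of TP53INP1 rests on 6 to 19 counts per untreated and 5 to 11 per treated A2780cis library. The nuclear body genes RBMX, SRRM1, SRSF3 and RBM25 differed by -0.58, -0.91, -0.50 and -0.50, each with the larger fall in A2780cis.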

How the results depend on the processing

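Of 611 alternatives of a called log2 FC of the 7 transcripts, 566 kept the direction and the call, 45 lost the call and 0 changed sign; of 645 alternatives of values not called, 16 passed and 60 changed sign. Of the 7 transcripts, the number called for untreated A2780 at 12 h against 6 h went from 0 to 1 without the filter, and for untreated A2780cis from 2 to 0 with size factors or library size alone and to 1 with no filter, the compared groups alone or DESeq2. Leaving out single libraries gave 2 to 3 for treatment in A2780 at 6 h (2 without control replicate 1 or 3 or treated replicate 1), 1 to 4 for the difference between lines at 6 h (1 without A2780 control replicate 1), 1 to 2 at 12 h (1 without A2780cis control replicate 1), and 0 to 1 for untreated A2780cis over time.

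All sign changes were of values that were not called. With library size alone they were 0.0503 for MALAT1 in A2780 at 6 h, 0.033 for TP53TG1 and -0.050 for PVT1 between the lines at 6 h and 12 h, -0.089 for LINC-PINT and -0.010 for TP53TG1 between untreated lines at 6 h, and over time without drug 0.0096 for MALAT1 in A2780 and 0.14 for NEAT1 and 0.0051 for MALAT1 in A2780cis. TP53TG1 between the lines at 6 h also gave 0.022 with size factors, 0.013 with no filter, 0.0091 with the block, 0.058 with the compared groups alone and 0.022 with DESeq2, LINC-PINT between untreated lines gave -0.028, -0.00048, -0.078 and -0.025 under the same settings but the block, and NEAT1 over time in A2780cis gave 0.028 with no filter and 0.055 with the groups alone. Leaving out single libraries gave, for treatment, -0.17 to 0.20 for MALAT1 and -0.35 to 0.013 for NEAT1 in A2780 at 6 h and -0.25 to 0.69 for MIR34AHG in A2780cis at 12 h. Between the lines it gave -0.65 to 1.67 for MIR34AHG and -0.26 to 0.59 for TP53TG1 at 6 h, and -0.18 to 0.054 for MALAT1, -0.17 to 0.051 for NEAT1, -0.0039 to 0.12 for PVT1 and -0.30 to 0.054 for TP53TG1 at 12 h, and from 6 h to 12 h in A2780cis -0.29 to 0.13 for MALAT1. Between untreated lines it gave -0.081 to 0.095 for LINC-PINT and -0.50 to 0.35 for TP53TG1 at 6 h, and -0.28 to 0.032 for LINC-PINT, -0.12 to 0.0081 for NEAT1 and -0.10 to 0.25 for TP53TG1 at 12 h. Over time without drug it gave -0.21 to 0.16 for MALAT1 and -0.29 to 0.022 for PURPL in A2780, and -0.42 to 1.93 for MIR34AHG, -0.056 to 0.019 for NEAT1 and -0.062 to 0.79 for TP53TG1 in A2780cis.

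The replicate number as a block left the number of called transcripts the same in all 12 comparisons and turned MALAT1 in A2780 at 6 h to 0.0087; of 12 pairs of same-numbered libraries the deviations correlated from -0.254 to 0.312, so the numbers were not taken as pairs. With library size alone, the median log2 FC of all genes at 12 h moved to 0.24 (A2780, from 0.02) and 0.15 (A2780cis, from 0.04), and higher genes made up 70.7% instead of 52.3% of the A2780 calls. That share also moved in A2780cis at 6 h (47.0% to 61.4%), in the change of response over time in A2780 (45.1% to 69.7%), between the lines at 12 h (41.0% to 27.0%) and over time without drug (61.7% to 71.9% in A2780, 45.2% to 74.6% in A2780cis). Of all genes, 5950 were called for A2780 at 6 h, 3805 without control replicate 1 and 3963 without treated replicate 1; 622 differed between the lines at 6 h, and 357 to 408 without A2780 control replicate 1, A2780 treated replicate 2, A2780cis control replicate 2 or A2780cis treated replicate 2; over time without drug 5435 were called in A2780, 1846 without 6 h replicate 1 and 2324 without 12 h replicate 3, and 8083 in A2780cis, 4985 without 12 h replicate 3. Fitted on A2780cis groups alone, MIR34AHG failed the filter and gave no value.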

Other observations

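Over the 8 group means of log2 CPM, each long noncoding RNA was set beside 12513 other tested genes by Pearson r, as a description of points that share libraries, lines and drug. For TP53TG1 the genes most alike were P2RX4, an ATP-gated ion channel (r = 0.996), ZDHHC11B (0.993) and STAG3 (0.991). For PURPL they were ENSG00000197813 (0.993), ZNF691 (0.987) and ENSG00000280145 (0.983). For NEAT1 the first were its own segments ENSG00000277599 (0.989) and ENSG00000278050 (0.988), which share its reads, and then CALCOCO1, an autophagy receptor (0.987). For PVT1 they were AKTIP (0.988), ZNF37BP (0.981) and ZNF83 (0.977), and for MIR34AHG DCLRE1B (0.979), CCN1 (0.978) and CRYZL2P (0.977). LINC-PINT was closest to PET117 (0.962), ANKRD42-DT (0.955) and BRD8 (0.927), and MALAT1 to ENSG00000279576 (0.985), ZSCAN9 (0.949) and KHDC4 (0.945). Among the 7 themselves r ran from -0.649 for PVT1 and MIR34AHG to 0.899 for NEAT1 and TP53TG1.

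Rows that overlap these transcripts gave further values. A short RNA annotated within MALAT1, ENSG00000278217, stood at a log2 FC of 0.94 in A2780 at 12 h, of 1.13 in A2780cis at 6 h and of 0.33 in A2780cis at 12 h (adjusted p = 0.317). Antisense to TP53TG1, ENSG00000273623 reached 2.00 and 1.38 at 12 h (log2 FC, A2780 and A2780cis), and ENSG00000276185 1.45 and 1.77. Antisense to LINC-PINT, LINC00513 rose by 1.80 in A2780cis at 12 h (adjusted p = 0.00530). Without a stated strand setting these reads and those of the overlapping transcripts cannot be told apart.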
